A study of Xenopus tropicalis with 31 samples.

Results

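The *tp63* locus of *Xenopus tropicalis* was examined for binding of Foxi2, Sox3 and the coactivator Ep300 and for the histone marks H3K27ac and H3K27me3. The locus was defined as the *tp63* gene (gene ID 100497737, chromosome 5, 103961456 to 104069403, genome version 10.0) with 20 kb on each side, a window of 147.948 kb. It holds 45 of the 190255 peaks and regions in the 16 lists: 36 of the 100260 peaks of Foxi2, Sox3 and Ep300, and 9 regions of the histone marks. The locus was selected on these same peaks, their stages and fold enrichments and their WT and FSMO Ep300 values, so the values here describe 1 locus and carry no test.

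*tp63* encodes p63, a transcription factor that is required in mouse and human for stratified epithelia such as the epidermis. The ΔN form, which lacks the N-terminal activation domain of the longer TA form, is the main product in basal epidermal cells, and in frog embryos *tp63* is transcribed in the prospective epidermis under BMP signaling. Foxi2 and Sox3 are maternal transcription factors of the forkhead and Sox families that are enriched on the animal side of the embryo, the source of the ectoderm. Ep300 is a histone acetyltransferase that is recruited by transcription factors to active cis-regulatory modules (CRMs), H3K27ac is the mark that it deposits there, and H3K27me3 is the repressive mark of the Polycomb system.

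The study profiled Foxi2 and Sox3 by ChIP-seq in whole wild-type embryos at the mid-blastula (stage 8), late blastula (stage 9) and early gastrula (stage 10.5). Ep300 was profiled at stage 10.5 in ectoderm and endoderm from FSMO embryos (FS morphants) and from wild-type (WT) embryos in a second experiment, and in WT ectoderm and WT endoderm alone in a first experiment. The histone marks were profiled in WT ectoderm and WT endoderm at stage 10.5. FS morphants were, per the methods of the study, embryos injected on the animal side with morpholinos that block translation of *foxi2* and *sox3* mRNA, and the labels of these samples otherwise describe them as wild-type *X. tropicalis*. Embryos given a control morpholino were not analysed here, so injection itself and loss of the 2 factors cannot be told apart, and the endoderm of these embryos comes from the side opposite to the injections. Each of the 16 groups with a list has a single list, combined over 2 replicates or made from 1 sample, so no value below has a replicate error. Marker genes of the 2 tissues were counted in the second experiment. Of 9 ectoderm marker genes, 9 had a WT ectoderm Ep300 peak within 20 kb and 5 had a WT endoderm peak. Of 8 endoderm marker genes, 4 had a WT ectoderm peak and 8 had a WT endoderm peak. Over all genes, 17.9% had a WT ectoderm peak within 20 kb and 30.0% a WT endoderm peak.

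Binding at *tp63* fell into 12 separate regions, of which 10 lay inside the gene and 2 lay in the flank beyond its lower-coordinate end. The strand of the gene and its exons were not given in the annotation table used here, so each region is named by the distance of its centre from that end in kb, and whether a region is exonic or intronic was not determined. The 10 intragenic regions were spread over 38.907 kb, from +31.4 to +69.9 kb. The 37.821 kb of the gene above the last of them held no peak of any of the 12 Foxi2, Sox3 and Ep300 lists. The next peak on that side, a Foxi2 peak of stage 8 with a fold enrichment of 12.8, lay 101.893 kb beyond the gene and outside the window. On the other side, the outermost peak inside the window was a Foxi2 peak of stage 8 at −12.3 kb with a fold enrichment of 13.1, and the nearest one outside was a Foxi2 peak of stage 8 with a fold enrichment of 11.6, 57.313 kb from the gene. The only other annotated gene that reached into the window was *p3h2*, which encodes a collagen prolyl hydroxylase, with 70 bp at the upper edge. No Foxi2, Sox3 or Ep300 peak lay there, but an endoderm H3K27me3 region (104087307 to 104089369) overlapped it.

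**Figure D1:**
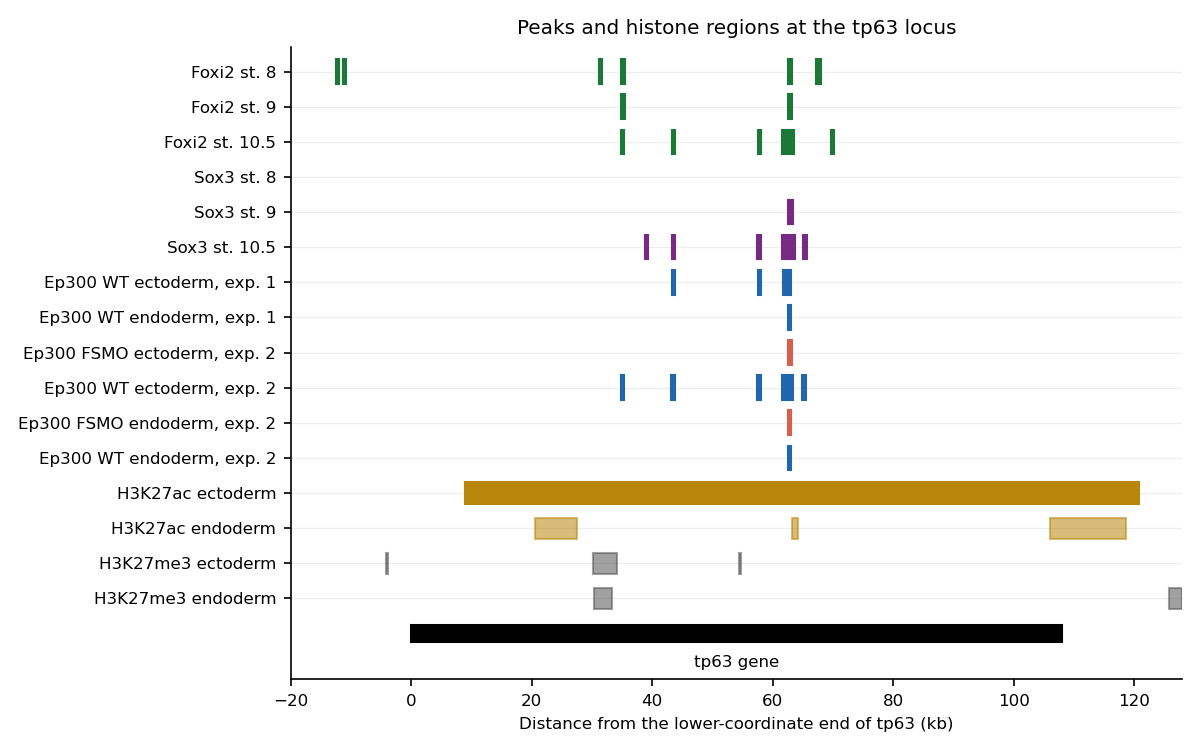
Peaks and histone regions at *tp63*, plotted against the distance in kb from the lower-coordinate end of the gene, with 1 row for each of the 16 lists. Boxes mark the extent of each peak (drawn at least 0.5 kb wide so that it can be seen), the black bar is the gene, and among the H3K27ac and H3K27me3 rows full colour marks a super-enhancer. The column of boxes near +63 kb is present in 11 of the 12 Foxi2, Sox3 and Ep300 rows.

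One region stood in nearly every list. The +63 kb region (chromosome 5, 104023919 to 104025066, 1148 bp) held a peak in 11 of the 12 lists, the exception being Sox3 at stage 8, and no other region held a peak in more than 4. The strongest summits of those 11 lists lay within 49 bp of each other. The regions at +35.1 kb (103996210 to 103996893), +43.5 kb (104004595 to 104005280), +57.7 kb (104018881 to 104019520) and +61.9 kb (104022971 to 104023741) each held a peak in 4 lists, and the region at +65.3 kb (104026369 to 104027071) in 2. The other 6 regions, at −12.3, −11.2, +31.4, +39.0, +67.6 and +69.9 kb, were each bound in a single list, always by Foxi2 or Sox3 and never by Ep300. The +61.9 and +63 kb regions were separated by 177 bp, so the middle of the gene held a cluster of 3 regions with Ep300 between +61.9 and +65.3 kb.

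**Figure D2:**
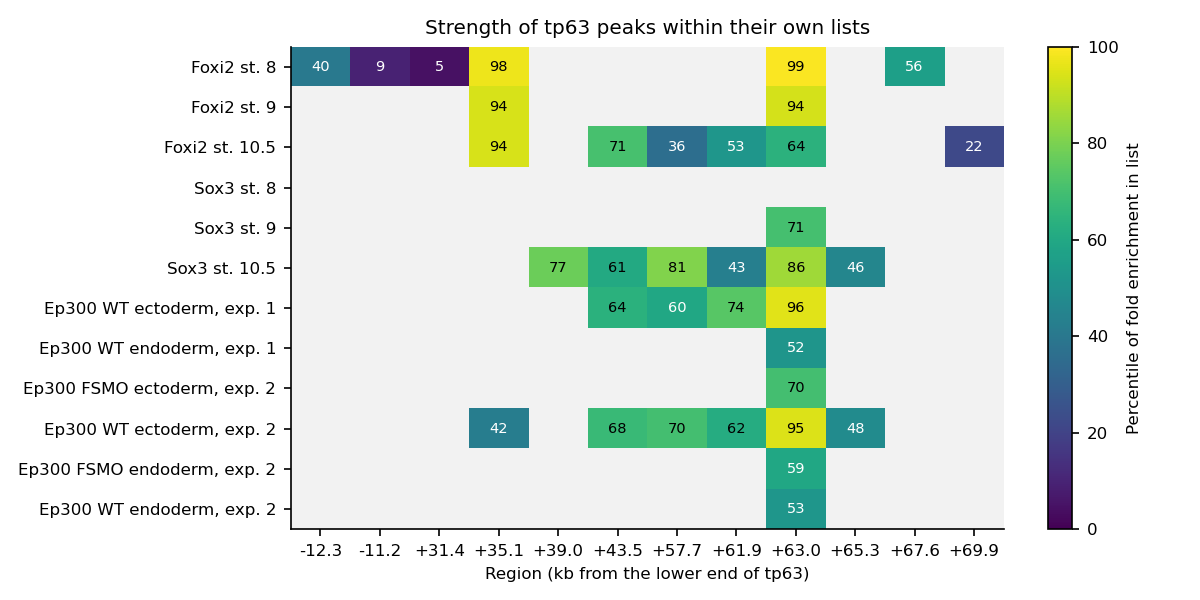
Strength of the strongest *tp63* peak of each region and list, as the percentile of its fold enrichment within its own list. Columns are the 12 regions in kb from the lower end of the gene, rows are the 12 lists, and grey cells have no peak. The +63 kb column runs from 52.0 (first-experiment WT endoderm Ep300) to 99.5 (Foxi2 at stage 8).

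By ChIP-qPCR, the paper reports Foxi2 and Sox3, but not Ep300, at *tp63* already in cleavage-stage embryos. The lists used here start at stage 8, so they cannot date the first binding of either factor or its order. In these lists Foxi2 had called peaks at *tp63* from the mid-blastula on. At stage 8 it had 6 peaks, with fold enrichments over input of 40.9 at +63 kb, 35.1 at +35.1 kb, 15.6 at +67.6 kb, 13.1 at −12.3 kb, 9.62 at −11.2 kb and 9.03 at +31.4 kb. The first 2 of these were among the strongest Foxi2 peaks of the embryo at that stage, at percentiles 99.5 and 97.6 of the list, and the weakest 2 were at percentiles 9.47 and 4.68. The +63 and +35.1 kb regions, 2 of the 6, were also bound at both later stages, while in the genome as a whole 42.0% of stage 8 peaks overlapped a stage 9 peak and 26.5% a stage 10.5 peak. At stage 9 Foxi2 had peaks in those regions alone, with fold enrichments of 42.5 at +35.1 kb and 41.9 at +63 kb. At stage 10.5 Foxi2 again had 6 peaks, with fold enrichments of 38.4 at +35.1 kb, 28.5 at +43.5 kb, 26.6 at +63 kb, 23.8 at +61.9 kb, 20.4 at +57.7 kb and 17.5 at +69.9 kb.

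Most Foxi2 sites of stage 8 were not Foxi2 sites of stage 10.5. Of the 10 regions that held Foxi2 at some stage, 4 were bound at stage 8 alone, 4 at stage 10.5 alone and 2, at +35.1 and +63 kb, at all 3 stages. Both stage 9 peaks were thus also bound before and after, as were 43.8% of all stage 9 peaks, and 2 of the 6 stage 10.5 peaks lay on a stage 8 peak, as did 56.8% of all. Across the 16392 Foxi2 regions of the genome, 43.1% were bound at stage 8 alone, 13.6% at stage 10.5 alone and 17.6% at all 3 stages, or 61.1% at a single stage. With the 3 Foxi2 lists brought to equal length by fold enrichment, 5 of 7 regions belonged to a single stage instead of 8 of 10. At the +35.1 kb region the summits of stage 8 and stage 10.5 were 23 bp apart, and at the +63 kb region 2 bp, beside a median of 15 bp over 3505 overlapping pairs of peaks.

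The rank of the 2 persistent sites depended on the measure of strength. At +35.1 kb, Foxi2 was at percentiles 97.6, 94.1 and 94.1 of fold enrichment at stages 8, 9 and 10.5. At +63 kb it was at percentiles 99.5, 93.6 and 64.3, so its place in the list was lower at stage 10.5 than at either earlier stage. By the deposited −log10 p, the percentiles at +63 kb were 99.3, 96.8 and 91.0 and those at +35.1 kb were 96.6, 90.8 and 85.2, so by that measure +63 kb ranked above +35.1 kb at each of the 3 stages. The stage 10.5 peak at +63 kb was also the widest of the 36, at 1129 bp.

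In these lists the earliest Sox3 peak called at *tp63* was that of stage 9. The stage 8 list of Sox3, which holds 5827 peaks, had none in the window. This list also had the lowest median −log10 p of the 6 Foxi2 and Sox3 lists, 32.2, so a missing peak in it says only that none was called. As given above, the paper reports Sox3 at *tp63* before this stage by ChIP-qPCR. At stage 9 Sox3 had a single peak, at +63 kb, with a fold enrichment of 22.5. At stage 10.5 it had 7 peaks in 6 regions, with fold enrichments of 23.1 at +63 kb, 20.6 at +57.7 kb, 19.0 at +39.0 kb, 14.0 at +43.5 kb, 11.4 at +65.3 kb and 11.02 at +61.9 kb. The seventh was a weak peak of 3.46 inside the +63 kb region, at the bottom of its list (percentile 0.205). Of the 6 Sox3 regions, 5 were bound at stage 10.5 alone, which held for 51.6% of the 18901 Sox3 regions of the genome. With the 3 Sox3 lists brought to equal length, 2 of 3 regions were of stage 10.5 alone. Regions of a single stage made up 73.6% of the 18901, regions of stage 8 alone 21.1% and regions of all 3 stages 4.91%, and *tp63* had none of the last 2 kinds. The +63 kb region was the only one of the 6 with Sox3 at stage 9 and the only one with Foxi2 at stage 8. It held 2 of the 7 Sox3 peaks of stage 10.5. Both overlapped the Sox3 peak of stage 9 and the Foxi2 peak of stage 8. Over the genome, 28.0% of Sox3 peaks of stage 10.5 overlapped a Sox3 peak of stage 9 and 27.1% a Foxi2 peak of stage 8.

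**Figure D3:**
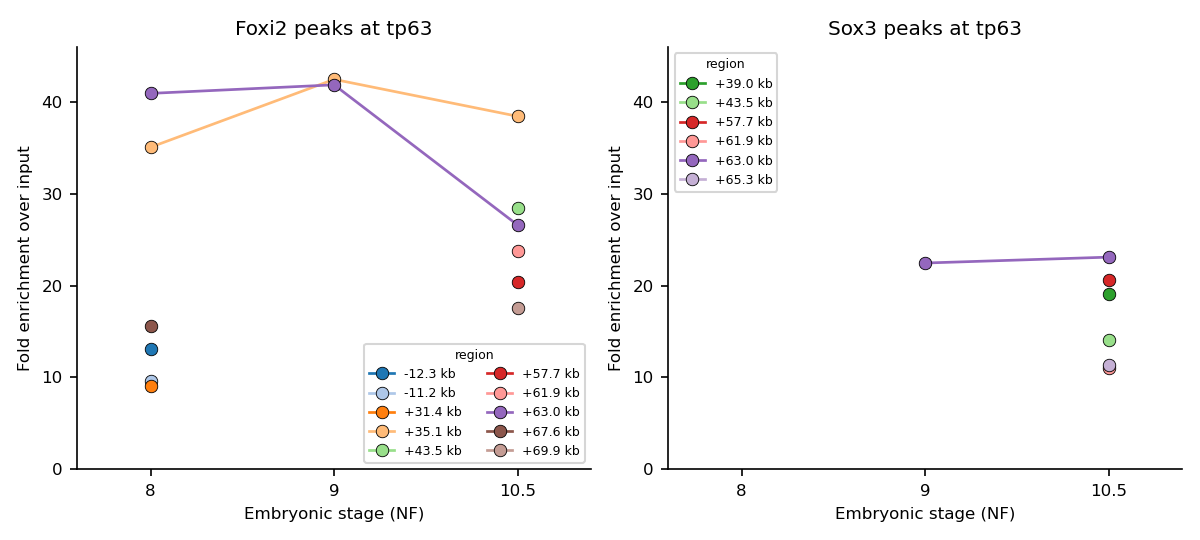
Fold enrichment over input (y axis, from 0) of Foxi2 peaks (left) and Sox3 peaks (right) at *tp63* by embryonic stage, 1 point per region and list, with lines joining the stages at which a region was bound. The +35.1 and +63 kb regions carry Foxi2 at all 3 stages, from 26.6 to 42.5, and the earliest Sox3 peak called in these lists is that of stage 9 at +63 kb. For the region with 2 Sox3 peaks the stronger is drawn.

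Foxi2 and Sox3 shared 4 regions at stage 10.5. Of the 6 Foxi2 peaks, those at +43.5, +57.7, +61.9 and +63 kb overlapped a Sox3 peak, while those at +35.1 and +69.9 kb did not. Over the genome, 79.4% of Foxi2 peaks of stage 10.5 overlapped a Sox3 peak, and 32.8% of the Sox3 peaks overlapped a Foxi2 peak. The Foxi2 and Sox3 summits were 72 bp apart at +43.5 kb, 20 bp at +57.7 kb, 8 bp at +61.9 kb and 1 bp at +63 kb, beside a median of 27 bp (interquartile range 12.25 to 51) over 4866 overlapping pairs. The weak second Sox3 peak at +63 kb was 717 bp from the same Foxi2 summit. At stage 9 the only shared region was +63 kb, 1 of the 2 Foxi2 peaks of that stage, where 39.6% of all Foxi2 peaks were shared with Sox3 and 59.6% of all Sox3 peaks with Foxi2. At stage 8 there was none, where 8.79% of Foxi2 peaks and 19.8% of Sox3 peaks were shared. The +63 kb region thus had a called peak of Foxi2 at stage 8 and of both factors at stages 9 and 10.5.

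By fold enrichment, the strongest Foxi2 site of stage 10.5 was not among the shared ones, while by −log10 p it was +63 kb, a shared region (367, against 338 at +35.1 kb). The +35.1 kb peak, at percentile 94.1 of fold enrichment, had no Sox3 peak at any stage, although 94.4% of the 604 Foxi2 peaks in the same uppermost decile of fold enrichment did overlap one. The mirror case was the +39.0 kb region, where Sox3 had a fold enrichment of 19.0 (percentile 77.5) and Foxi2 had no peak at any stage.

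The strongest Ep300 peaks in WT ectoderm were at the shared regions. In the second experiment the WT ectoderm list had 6 peaks at *tp63*, with fold enrichments of 19.2 at +63 kb, 11.3 at +57.7 kb, 10.9 at +43.5 kb, 10.1 at +61.9 kb, 8.59 at +65.3 kb and 8.10 at +35.1 kb. The 4 strongest were the 4 regions with both Foxi2 and Sox3 at stage 10.5 (Foxi2/Sox3/Ep300, or FSE, regions), the +65.3 kb peak overlapped Sox3 alone and the +35.1 kb peak Foxi2 alone. The share of FSE peaks in that list as a whole was 52.4%. The +35.1 kb region had the highest Foxi2 fold enrichment of stage 10.5 and the lowest Ep300 fold enrichment, whereas by −log10 p the +63 kb region was highest for both. The +39.0 and +69.9 kb regions, with Sox3 alone and Foxi2 alone, had no Ep300 peak. A WT ectoderm Ep300 peak was thus present at 5 of the 6 Foxi2 peaks of stage 10.5, where 49.9% of all overlapped one. Such a peak was present at 5 of the 6 Sox3 regions. Of all Sox3 peaks, counted as peaks rather than regions, 30.3% overlapped one. Over the genome, a WT ectoderm Ep300 peak was overlapped by 60.3% of the Foxi2 peaks that had Sox3, by 9.74% of the Foxi2 peaks that had none and by 15.6% of the Sox3 peaks without Foxi2.

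The first Ep300 experiment gave 4 of these 6 regions. Its WT ectoderm peaks had fold enrichments of 6.88 at +63 kb, 4.57 at +61.9 kb, 4.04 at +43.5 kb and 3.85 at +57.7 kb, and those 4 were the FSE regions. FSE peaks made up 45.4% of that list. The 2 regions that it lacked, +65.3 and +35.1 kb, were the 2 weakest of the second experiment, in which 68.8% of WT ectoderm peaks overlapped a peak of the first. The scale of fold enrichment differed between the experiments, with list medians of 3.54 and 8.76, so levels were compared only by percentile. The +63 kb peak was at percentile 95.7 in the first and 94.9 in the second. When a shared region had to cover 50% of each peak, 2 of the 4 first-experiment peaks remained co-bound.

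In the second experiment, the summit of the strongest peak of each factor lay within 64 bp of the WT ectoderm Ep300 summit in these regions. With the first-experiment Ep300 peak included, the summits at +57.7 kb spanned 120 bp, so the close distances there hold for the second experiment alone. The distance from the Foxi2 summit of stage 10.5 to that of WT ectoderm Ep300 was 1 bp at +63 kb, 6 bp at +61.9 kb, 8 bp at +43.5 kb, 18 bp at +35.1 kb and 20 bp at +57.7 kb, with a median of 28 bp over 3079 pairs. The distance from the Sox3 summit was 0 bp at +57.7 kb, 2 bp at +61.9 and +63 kb, 38 bp at +65.3 kb and 64 bp at +43.5 kb, with a median of 26 bp over 4500 pairs. The weak second Sox3 peak at +63 kb was 718 bp from the Ep300 summit. At +43.5 kb the Ep300 summit was thus nearer to Foxi2 than to Sox3.

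The endoderm lists held a single Ep300 peak at *tp63*, at +63 kb. Of the 6 WT ectoderm peaks of the second experiment, 1 overlapped a WT endoderm peak, where 42.3% of all WT ectoderm peaks did. In the first experiment it was 1 of 4, where 35.2% did. At +63 kb the second experiment gave a fold enrichment of 19.2 in WT ectoderm and 9.44 in WT endoderm, at percentiles 94.9 and 52.7 of lists with medians of 8.76 and 9.15. The first experiment gave 6.88 in WT ectoderm and 3.85 in WT endoderm, at percentiles 95.7 and 52.0. The region was thus in both tissues in both experiments, with the higher value in ectoderm each time, and the other 5 WT ectoderm regions had no endoderm peak.

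In FS morphants, 1 of the 6 WT ectoderm Ep300 peaks of *tp63* was still called. The FSMO ectoderm list had its only peak at +63 kb, with a fold enrichment of 11.97, against 19.2 in WT ectoderm. The other 5 regions had no FSMO ectoderm peak, against WT ectoderm fold enrichments of 11.3 at +57.7 kb, 10.9 at +43.5 kb, 10.1 at +61.9 kb, 8.59 at +65.3 kb and 8.10 at +35.1 kb. Over the genome, 55.9% of WT ectoderm peaks had no overlapping FSMO ectoderm peak, and 59.8% of FSE peaks had none. The locus was chosen with this contrast in view, so nothing is read from its count beside those shares.

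The peak that was kept was the strongest of the 6. In its decile of WT fold enrichment 24.1% of WT ectoderm peaks were not kept. In the deciles of the other 5, the shares not kept were 43.2% for +57.7 kb, 56.8% for +43.5 and +61.9 kb and 58.4% for +65.3 and +35.1 kb. Among the FSE peaks of each decile, the shares were 25.8% for +63 kb, 52.1% for +57.7 kb and 68.1% for +43.5 and +61.9 kb. For +65.3 and +35.1 kb, which were not FSE peaks, 49.0% of the peaks of their decile that were not FSE peaks were not kept. The weakest of the 5, 8.10, lay above the fifth percentile of the FSMO ectoderm list (5.82), but absence from a list says only that no peak passed the authors' thresholds there, and no FSMO value is given at these places. Among the stronger 50% of the WT list, 3 of 4 peaks at *tp63* were not kept. When an FSMO peak within 500 bp was accepted, 4 of 6 were not kept, since the +61.9 kb peak then took the FSMO peak of its neighbour.

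**Figure D4:**
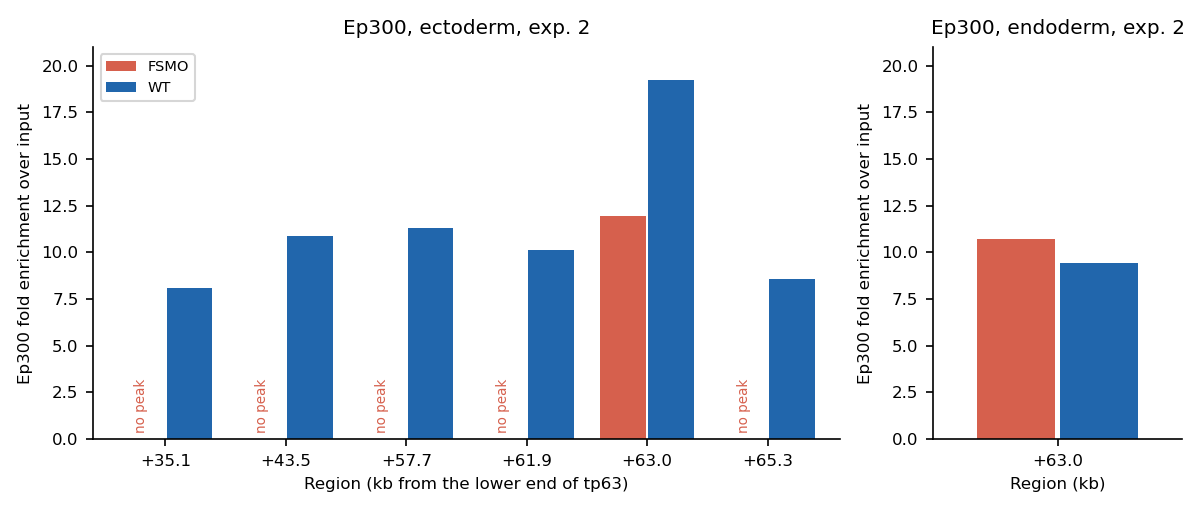
Ep300 fold enrichment over input (y axis, from 0) in FSMO (red) and WT (blue) tissue of the second experiment at each *tp63* region with a WT Ep300 peak, in ectoderm (left) and endoderm (right). "No peak" marks regions with no FSMO peak in the list. In ectoderm only +63 kb has both bars, 11.97 in FSMO and 19.2 in WT, and in endoderm they are 10.7 and 9.44.

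At +63 kb, Ep300 fold enrichment in FSMO ectoderm was 0.623 times that in WT ectoderm (−0.68 on the log2 scale), and the −log10 p of the peak was 83.3 in FSMO and 183 in WT. The 2451 WT ectoderm peaks kept in FSMO had a median ratio of 1.06 (interquartile range 0.822 to 1.31), and 9.38% of them had a lower ratio than *tp63*. The 422 kept peaks in its decile of WT strength had a median of 0.845. Among the 1168 kept FSE peaks the median was 0.937 and 16.9% were lower. The place of the peak within its own list was percentile 70.1 in FSMO ectoderm and 94.9 in WT ectoderm, and the 2 summits were 23 bp apart.

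In endoderm the ratio at the same region lay at the upper quartile of all kept peaks. Ep300 at +63 kb had a fold enrichment of 10.7 in FSMO endoderm and 9.44 in WT endoderm, a ratio of 1.13 (0.18 on the log2 scale), and the 9684 kept WT endoderm peaks had a median ratio of 1.03 (interquartile range 0.944 to 1.13). The FSMO endoderm peak had a score of 781, against 1000 in WT endoderm, so it was absent at a score of at least 830. In the endoderm 16.5% of WT peaks had no FSMO peak. FSMO ectoderm and FSMO endoderm thus had similar fold enrichments at this region, 11.97 and 10.7, where WT ectoderm and WT endoderm had 19.2 and 9.44. Whether the FSMO to WT ratios differ between the tissues was not tested, since each rests on 1 list per group.

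**Figure D5:**
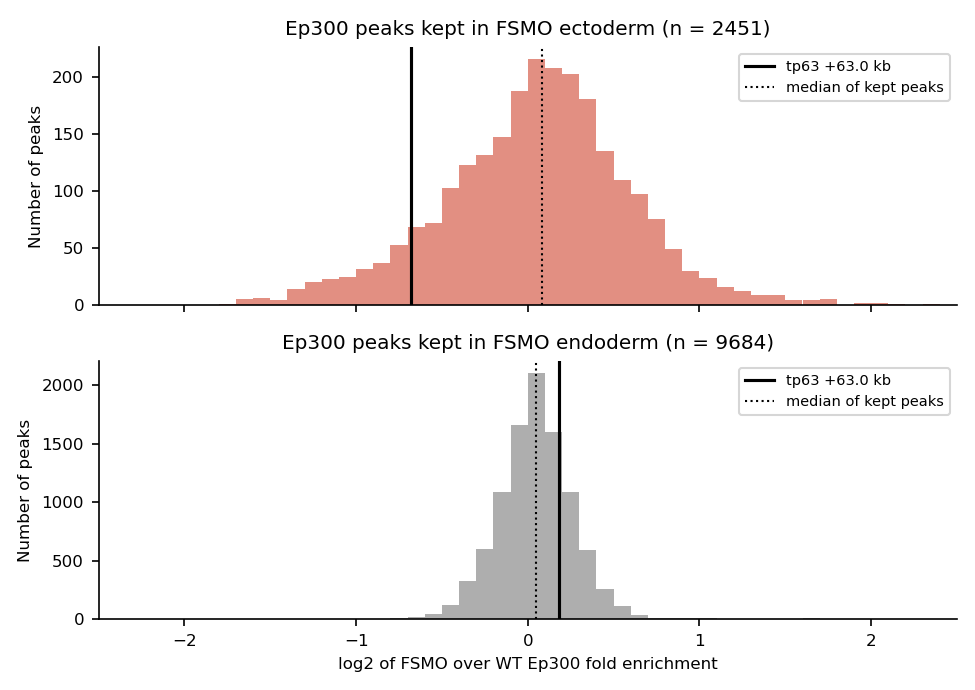
Distribution of the log2 ratio of FSMO over WT Ep300 fold enrichment for WT peaks kept in FSMO ectoderm (top, 2451 peaks) and endoderm (bottom, 9684 peaks). The solid line is the *tp63* +63 kb peak, at −0.68 in ectoderm and 0.18 in endoderm, and the dotted line is the median of the kept peaks.

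In ectoderm a single stitched H3K27ac region of 111.738 kb (chromosome 5, 103970457 to 104082194), from +9.0 to +120.7 kb, spanned 75.5% of the window and was called a super-enhancer (SE) by the authors. The H3K27ac peaks that were stitched into it covered 23.3% of the window. Stitched H3K27ac regions of ectoderm spanned 11.7% of the genome. It was ranked 229 of 16257 ectoderm H3K27ac regions, of which 1156 were SEs, and its signal was 2.74 times that of the lowest SE. It held all 10 intragenic regions of Foxi2, Sox3 or Ep300, and the 2 regions at −12.3 and −11.2 kb lay outside it. Over the genome, 49.3% of WT ectoderm Ep300 peaks, 36.3% of Foxi2 peaks of stage 10.5 and 15.1% of genes overlapped an ectoderm SE. The *tp63* SE was wide rather than dense: it was joined from 37 H3K27ac peaks that cover 30.9% of its length, beside a median width of 60285.5 bp and 16 joined peaks over all ectoderm SEs, and 23.9% of ectoderm SEs had a lower signal per kb.

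In endoderm the window held 3 stitched H3K27ac regions, none of them an SE. They spanned 13.9% of the window, where stitched H3K27ac regions of endoderm spanned 9.66% of the genome. The H3K27ac peaks themselves covered 1.55% of the window. The 3 regions were ranked 4162, 6742 and 9862 of 17263. The smallest of the 3 (104024687 to 104025633) overlapped the upper end of the +63 kb region but not the endoderm Ep300 peaks, which ended below it. The library behind the endoderm signal, ranks and SE calls could not be settled from the headings of that table, so all of these stand as the authors gave them.

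H3K27me3 was sparse at the locus in both tissues. It covered 3.10% of the window in ectoderm, in 3 regions, and 3.37% in endoderm, in 2 regions, against 11.8% and 10.8% of the genome. The widest was shared by the 2 tissues, at 103991667 to 103995542 in ectoderm (3876 bp, ranked 5945 of 29268) and at 103991870 to 103994794 in endoderm (2925 bp, ranked 10465 of 27207). It contained the +31.4 kb region, the weakest of the stage 8 Foxi2 peaks, and no other region of the locus lay in an H3K27me3 region. Over the genome, 26.6% of stage 8 Foxi2 peaks lay in an ectoderm H3K27me3 region.

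Few genes had as many ectoderm Ep300 peaks as *tp63*. Of 28772 annotated genes, 102 (0.355%) had 6 or more WT ectoderm Ep300 peaks of the second experiment within 20 kb, *tp63* included, and 135 (0.469%) had 4 or more FSE peaks. Because *tp63* is long, it was also set beside the 1232 genes of 80 to 140 kb, of which 13 (1.06%) had 6 or more. In WT endoderm, 30.0% of all genes and 51.2% of the genes of 80 to 140 kb had at least the 1 peak that *tp63* had. Of the 102 genes, 18 (17.6%), *tp63* among them, had 1 or no FSMO ectoderm peak. The locus was chosen with these values in view, so nothing is read from its place among these genes.

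*tp73*, a gene related to *tp63* on chromosome 7, had no ectoderm Ep300 peak in either FSMO or WT and no SE. Foxi2 had 2 peaks there in each of the stage 8 and 9 lists and 1 in that of stage 10.5, which for Sox3 held 2.

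Regulators of the early surface ectoderm, among which p63 acts, also had Ep300 peaks in ectoderm. All 13 had a WT ectoderm Ep300 peak within 20 kb, where 17.9% of all genes did, and 12 had an FSE peak, where 9.78% did. In WT endoderm 11 of the 13 had an Ep300 peak, with 32 peaks in all, where 30.0% of all genes had one. Ep300 near these genes was thus not confined to ectoderm. In FSMO ectoderm 8 of the 13 had fewer peaks than in WT ectoderm and 1 had more, with 20 peaks in FSMO and 42 in WT in all. Of all genes with a WT ectoderm peak, 57.6% had fewer in FSMO ectoderm, a share close to that of the 13, so nothing is read from it. The share of all genes with more was not counted. The whole lists held 3593 peaks in FSMO and 5552 in WT. The genes named next are the 4 of the list with the most WT ectoderm peaks. That choice by itself favours FSMO counts below WT counts, so they do not stand for the 13. *gata2*, a zinc-finger factor of non-neural ectoderm, had 0 FSMO and 7 WT peaks, the Krüppel-like factor gene *klf5* had 1 FSMO and 6 WT peaks, the homeobox gene *msx1* had 1 FSMO and 5 WT peaks and *grhl1*, a grainyhead factor of epidermal differentiation, had 4 FSMO and 5 WT peaks. An ectoderm SE overlapped 9 of the 13 genes, where 15.1% of all genes overlapped one, and an endoderm SE 1, where 8.20% did, with the limit on endoderm SE calls given above.

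Among 16 genes that p63 acts on in mouse or human skin, 9 had a WT ectoderm Ep300 peak and 6 had an FSE peak. A WT endoderm Ep300 peak was near 8 of the 16. Of the 9 with a WT ectoderm peak, 8 had fewer peaks in FSMO than in WT ectoderm, and none of the 16 had more. The shares over all genes were the 17.9%, 9.78% and, among genes with a WT ectoderm peak, 57.6% given for the list before. For a WT endoderm peak the share was 30.0%, and the share of all genes with more FSMO than WT ectoderm peaks was not counted. The sums were 6 peaks in FSMO and 21 in WT, where the whole lists held 3593 and 5552. The integrin gene *itga6* had 1 FSMO and 4 WT peaks, the Notch ligand gene *jag1* had 0 FSMO and 4 WT peaks, the receptor gene *fgfr2* had 1 FSMO and 4 WT peaks and the desmoplakin gene *dsp* had 2 FSMO and 3 WT peaks. The BMP pathway, which acts upstream of *tp63* in frog epidermis, was counted in the same way. Of 12 genes found, 8 had a WT ectoderm peak and 8 had an FSE peak. A WT endoderm peak was near 11 of the 12, with 39 WT endoderm peaks in all. Of the 8 with a WT ectoderm peak, 4 had fewer FSMO than WT ectoderm peaks. Of all 12, 3 had more FSMO than WT peaks, and the share of all genes with more was not counted. The sums were 27 in FSMO ectoderm and 29 in WT ectoderm. *id3*, a direct BMP target, had 6 FSMO and 6 WT peaks, *bambi*, a BMP pseudoreceptor, had 5 FSMO and 6 WT peaks, the ligand gene *bmp4* had 4 FSMO and 4 WT peaks and the inhibitory *smad7* had 2 FSMO and 4 WT peaks. The genes named from these lists were again those with the most WT ectoderm peaks, with the same limit. The lists were chosen with earlier results of these data known, and whether they differ from each other or from other genes was not tested.

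The genes whose summed fold enrichment over the 12 lists was most like that of *tp63* were *morn1* and *c15orf39* (Pearson r = 0.978 each), *sptb* (0.966) and the neighbours *dlx5*, *dlx6* and LOC116411699, which share their peaks (0.966), out of 5733 genes with a peak in at least 6 lists. *dlx5* and *dlx6* encode homeobox factors of the ectoderm border. Several of the 12 lists share a tissue or an antibody, so they are not independent points. With peak counts in place of summed fold enrichment, 1 of the first 5 genes, *sptb*, was in both sets.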

How the data were processed

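The 31 samples fall into 19 groups by their labels, and 16 groups have a list. The authors aligned reads to genome version 10.0 with Bowtie 2, removed duplicates, called peaks over input with MACS2 and kept peaks that passed an irreproducible discovery rate of 0.05. The first Ep300 experiment and the H3K27ac groups have a single labelled sample per tissue. The methods of the study do not say how this rate was applied to the first Ep300 experiment. The 12 peak lists carry values made by the authors: the fold enrichment (a ratio of ChIP over input), the −log10 of the p-value, and a score that was 540 or more. The histone lists were deposited as ROSE output, stitched over 12 kb per the file headers, with a signal for H3K27ac and ranks for both marks. The extraction protocol names an antibody against VegT for every sample, and the titles were followed. Read depth per sample is not given in these lists, so the depth is unknown.

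From these lists, peaks overlapping *tp63* with 20 kb each side were taken, and peaks sharing at least 1 bp were merged into regions. A WT peak was kept if an FSMO peak overlapped it, and the ratio used the stronger FSMO peak where there were several. Co-bound Ep300 peaks overlapped peaks of both factors at stage 10.5. Those peaks came from whole embryos, so the tissue in which the factors were bound is not known. Percentiles are ranks of fold enrichment within a list. Likeness of genes was Pearson r of log2(1 + summed fold enrichment within 20 kb). Gene positions came from a RefSeq table of the same assembly, in which 11 of the 14 BMP genes were matched by symbol and 1, *smad5*, through a synonym of the entry *smad9*, and *krt5* of the p63 targets through a synonym of *krt61*. Named genes were *tp63*, genes in its window, the 5 most alike (with ties), *tp73* and from each list the 4 with the most WT ectoderm Ep300 peaks. The values of 1 gene named by this rule are not reported here. The locus and the gene lists were chosen with earlier results of these data known. Overlap and merging were tested on simulated data. Python 3.11.15, numpy 2.4.6, pandas 2.3.3 and matplotlib 3.10.9 were used.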

Additional observations from a re-analysis of the deposited data

Results flagged for a closer look

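The ratio of FSMO over WT Ep300 fold enrichment at the +63 kb region of *tp63* lay on opposite sides of 1 in the 2 tissues, 0.623 in ectoderm and 1.13 in endoderm. The endoderm value is at the upper quartile of all kept endoderm peaks (1.13). It rests on an FSMO endoderm peak with a score of 781, which is lost at a score of at least 830. Of the kept endoderm peaks that overlapped whole-embryo peaks of both Foxi2 and Sox3, 86.5% had a lower ratio. Each ratio compares 1 list with 1 list, and whether they differ was not tested.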

How the results depend on the processing

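The 36 peaks of the locus were 34 with 10 kb flanks, 36 with 50 kb flanks, 30 at a score of at least 830 and 26 in the stronger 50% of each list. Foxi2 peaks of stage 8 numbered 3 at that score and 3 in the stronger 50% (6 as deposited). Sox3 peaks of stage 10.5 numbered 4 in the stronger 50% (7 as deposited). The FSMO endoderm Ep300 peak was absent at that score. Foxi2 regions of a single stage numbered 5 of 7 at equal list lengths (8 of 10 as deposited), and Sox3 regions of stage 10.5 alone 2 of 3 (5 of 6 as deposited). WT ectoderm Ep300 peaks with no FSMO peak numbered 3 of 4 in the stronger 50% of the WT list (5 of 6 as deposited). Co-bound first-experiment Ep300 peaks numbered 2 when the overlap had to cover 50% of each peak (4 of 4 at 1 bp). Of the 5 genes most like *tp63*, 1 was shared when peak counts replaced summed fold enrichment. The causes were not tested. Over all alternatives, 67 of 77 values stayed within 1.5 times the main value and 10 did not, the rest of these being a share among kept peaks. Chosen after seeing the data, −log10 p in place of fold enrichment and co-bound kept peaks alone put 10.2% and 16.9% of kept peaks below the *tp63* ratio, beside 9.38%, and the first-experiment lists gave 1 ectoderm Ep300 peak shared with endoderm, as the second did.

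Leaving out a replicate was not possible, because each group has 1 list combined over its replicates. No paired analysis was possible because replicates are not separate in these lists. Motif searches were not run, as no genome sequence was used here. With the depth unknown, a missing peak cannot be told from a weak one.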
